A study of Mus musculus with 18 samples.

Results

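The 35 genes described here are antiviral genes known to be stimulated by type I interferon. They were taken from a fixed list of symbols, matched by gene identifier through GENCODE M21, and followed in all 18 libraries of the series. All 35 were found among the 22598 genes of each deposited file, and all 35 were among the 11563 genes that passed the filter on low counts and were tested. By role they are the IFIT family (Ifit1, Ifit1bl1, Ifit2, Ifit3, Ifit3b), the ISG15 system (Isg15, Usp18, Herc6), the Mx GTPases (Mx1, Mx2), the OAS family (Oas1a, Oas1g, Oas2, Oas3, Oasl1, Oasl2), the RNA sensors (Ifih1, Ddx58, Dhx58), effectors that act on double-stranded RNA (Eif2ak2, Adar), the PYHIN proteins (Ifi203, Ifi204), enzymes acting on nucleotides or RNA ends (Rsad2, Cmpk2, Isg20), the ADP-ribosylation genes (Parp9, Parp14, Dtx3l), and Bst2, Samd9l, Xaf1, Rtp4, Ifi44 and Ifi35.

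RNA was sequenced from bone-marrow-derived macrophages of wild-type mice, which are macrophages grown in culture from marrow progenitors. The 6 groups of 3 libraries each were macrophages given interferon-gamma (IFNg) with tumour necrosis factor (IFNg+TNF), with lipopolysaccharide, a bacterial cell wall component (IFNg+LPS), with interleukin-1 beta (IFNg+IL1b), or with hypoxia (IFNg+hypoxia), macrophages given IFNg alone, and controls without IFNg, all at 18 h. IFNg was thus shared by every group but the control, and no addition was made without it, so an effect of an addition alone cannot be told apart from its effect on top of IFNg. The labels give no strain, dose or oxygen level and leave unsaid whether a group's 3 libraries are separate animals or separate cultures, and p-values then reflect only how far these libraries spread, which may be technical.

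Type I interferons, chiefly interferon-beta and the interferon-alphas, bind the receptor Ifnar1/Ifnar2 and activate the factor ISGF3, which contains Stat2 and Irf9. ISGF3 binds the interferon-stimulated response element (ISRE) in the promoters of antiviral genes, and members of the IRF family can bind the same element. IFNg acts through its own receptor, many of its target genes carry the gamma-activated site (GAS), and macrophages are known to express antiviral genes in response to either cytokine.

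Promoters of 7 members are printed because their genes carry the main results: Isg15, Rsad2 and Oasl1 had high levels with IFNg+TNF, Ifit1 and Ifit1bl1 are related genes that were called in opposite directions there, and Ifit3 and Ifit3b are near copies. Each window runs 5′ to 3′ on the gene's own strand, covering 250 bases before and 50 after the annotated start, in the mouse build GRCm38.p6, from RefSeq. The windows lie at chr4:156200769-156201068, minus strand (Isg15), chr12:26456403-26456702, minus strand (Rsad2), chr5:114922990-114923289, plus strand (Oasl1), chr19:34640639-34640938, plus strand (Ifit1), chr19:34601919-34602218, minus strand (Ifit1bl1), chr19:34583279-34583578, plus strand (Ifit3) and chr19:34607707-34608006, plus strand (Ifit3b). Capitals mark matches to the ISRE motif GAAANNGAAA on either strand, and in Oasl1, which has none, the match to the NF-kappaB motif.
Isg15: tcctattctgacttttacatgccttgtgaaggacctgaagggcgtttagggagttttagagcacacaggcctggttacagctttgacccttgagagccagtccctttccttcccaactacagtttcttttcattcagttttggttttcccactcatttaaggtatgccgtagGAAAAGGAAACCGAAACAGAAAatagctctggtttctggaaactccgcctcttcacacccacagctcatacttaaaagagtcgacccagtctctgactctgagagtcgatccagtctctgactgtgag
Rsad2: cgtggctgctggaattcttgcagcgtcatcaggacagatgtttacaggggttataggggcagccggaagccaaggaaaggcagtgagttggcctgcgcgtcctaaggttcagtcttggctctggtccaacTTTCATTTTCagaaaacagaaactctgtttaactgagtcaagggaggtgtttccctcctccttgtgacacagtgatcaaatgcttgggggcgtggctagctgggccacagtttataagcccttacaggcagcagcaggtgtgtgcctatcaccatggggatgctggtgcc
Oasl1: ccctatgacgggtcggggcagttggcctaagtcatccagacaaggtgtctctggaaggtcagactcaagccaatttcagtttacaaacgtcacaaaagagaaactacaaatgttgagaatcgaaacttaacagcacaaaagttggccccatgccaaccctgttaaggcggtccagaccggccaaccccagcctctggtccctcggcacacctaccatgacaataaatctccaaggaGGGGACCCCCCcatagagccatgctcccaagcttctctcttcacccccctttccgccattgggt
Ifit1: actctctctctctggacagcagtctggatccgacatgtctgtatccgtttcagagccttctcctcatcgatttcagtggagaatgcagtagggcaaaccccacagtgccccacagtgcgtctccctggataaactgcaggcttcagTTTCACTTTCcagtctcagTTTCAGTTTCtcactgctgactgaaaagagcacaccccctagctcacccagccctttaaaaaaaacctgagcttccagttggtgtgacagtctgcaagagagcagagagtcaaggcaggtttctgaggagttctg
Ifit1bl1: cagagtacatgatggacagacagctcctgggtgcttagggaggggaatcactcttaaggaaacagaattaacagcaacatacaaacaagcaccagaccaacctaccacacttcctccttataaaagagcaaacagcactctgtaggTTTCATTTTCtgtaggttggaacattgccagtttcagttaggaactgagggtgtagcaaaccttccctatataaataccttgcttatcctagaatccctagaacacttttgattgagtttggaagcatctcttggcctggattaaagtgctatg
Ifit3: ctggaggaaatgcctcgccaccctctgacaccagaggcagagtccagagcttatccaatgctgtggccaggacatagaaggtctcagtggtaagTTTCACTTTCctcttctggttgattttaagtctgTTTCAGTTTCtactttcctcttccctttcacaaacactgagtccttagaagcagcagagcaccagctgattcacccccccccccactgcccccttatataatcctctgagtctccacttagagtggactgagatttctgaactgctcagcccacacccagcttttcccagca
Ifit3b: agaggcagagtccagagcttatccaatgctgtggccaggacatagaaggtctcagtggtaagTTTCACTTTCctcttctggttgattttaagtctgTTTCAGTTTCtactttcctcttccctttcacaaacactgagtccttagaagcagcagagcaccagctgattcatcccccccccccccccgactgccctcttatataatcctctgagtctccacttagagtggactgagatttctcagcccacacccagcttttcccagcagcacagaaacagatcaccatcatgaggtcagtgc

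Isg15 held 3 overlapping ISRE matches in a stretch of 22 bases, GAAAAGGAAACCGAAACAGAAA, at -78 to -57 from the start. Ifit1, Ifit3 and Ifit3b each held TTTCACTTTC followed by TTTCAGTTTC, which are ISRE matches read on the opposite strand. Counted from the annotated start as 0, they began at -104 and -85 in Ifit1, at -156 and -122 in Ifit3, and at -188 and -154 in Ifit3b. Rsad2 and Ifit1bl1 held 1 match each, the same 10 letters TTTCATTTTC, at -120 and -104. At the best offset without gaps, the Ifit3 and Ifit3b windows were identical at 75.0% of 268 positions, the Oas1a and Oas1g windows at 69.5% of 298, and the Ifit1 and Ifit1bl1 windows at 32.1% of 277.

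Of the 35 members, 26 had a promoter in the RefSeq table, and Usp18, Mx1, Mx2, Oas2, Dhx58, Ifi204, Parp9, Parp14 and Rtp4 were not matched. An ISRE match lay in 13 of the 26 windows (50.0%), against 3.44% of all 32851 promoters of the same length. The GAS motif TTCNNNGAA lay in 6 windows (23.1%), against 8.30% of all promoters, and the NF-kappaB motif in 5 (19.2%), against 8.46%. In Bst2 the GAS match overlapped both the ISRE and the NF-kappaB match, and in Ifit2 the GAS match overlapped the NF-kappaB match. These are matches of letters in a window and not measured binding.

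**Figure D1:**
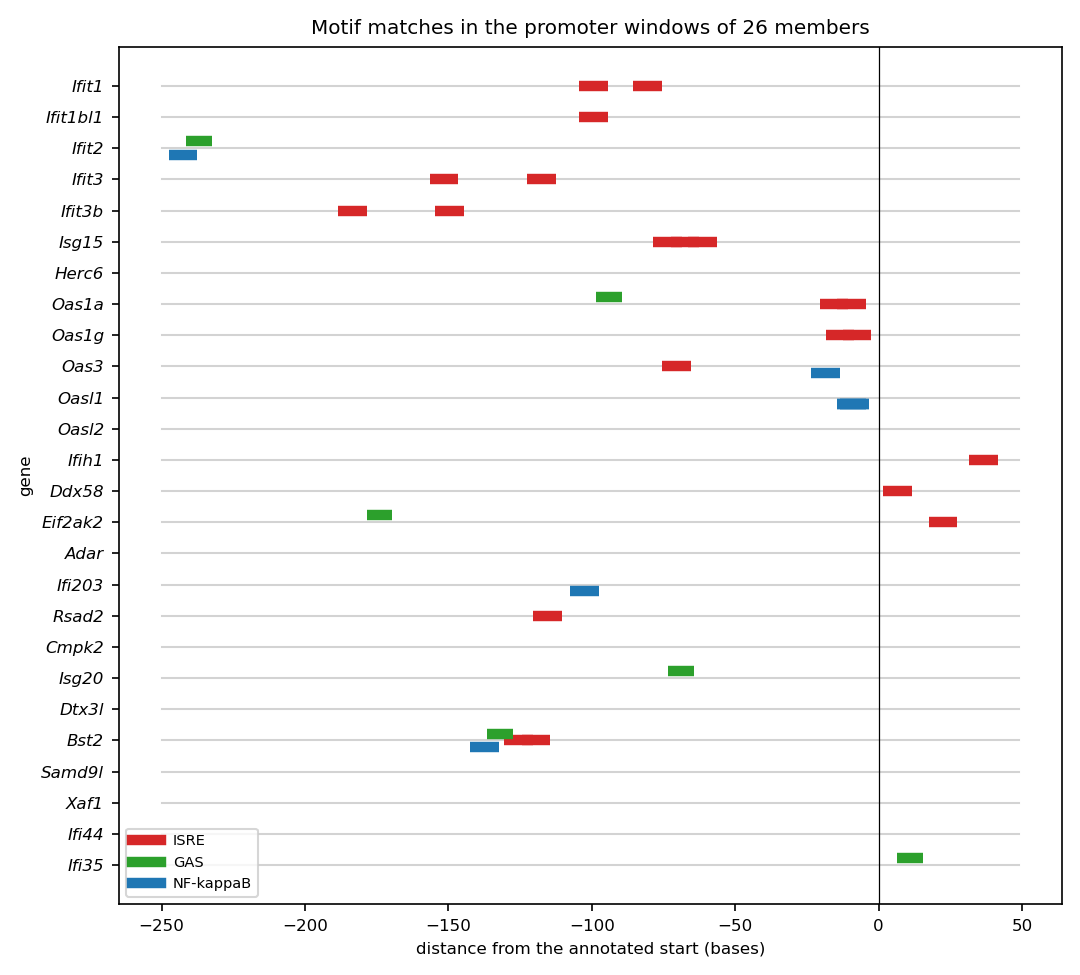
Positions of ISRE, GAS and NF-kappaB motif matches in the promoter windows of the 26 members with a window. The x axis gives the distance from the annotated start in bases, each grey line is one gene's window, and red, green and blue bars are ISRE, GAS and NF-kappaB matches; ISRE matches are present in 13 genes and lie after the start in Ifih1, Ddx58 and Eif2ak2.

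Total counts ran between 12270565 and 20952799 per library, and 3 counts corresponded to 0.151 to 0.255 CPM, where CPM is a gene's count scaled to a library of 1000000 counts in tested genes after adjusting by its TMM factor. Summed macrophage markers stood at 19020 to 20450 CPM with IFNg+TNF, 14340 to 15600 with IFNg+LPS and 13760 to 15130 with IFNg+IL1b. They stood at 17150 to 17810 CPM with IFNg+hypoxia, 13840 to 15570 with IFNg and 21800 to 27330 in controls. With IFNg+TNF against IFNg, 3 of these 10 markers were higher and 5 lower at an adjusted p under 0.05, with a median log2 fold change of -0.23. Of all tested genes 22.1% were higher and 22.6% lower. The higher sum with IFNg+TNF thus does not hold for each marker. Summed over 5 fibroblast markers, the level was 9.66 to 12.5 CPM in controls and 2.25 to 10.3 CPM in the other groups. Of the markers of lymphoid cells, 3 of 5 for T cells (Cd3e, Cd3d and Cd3g), 3 of 4 for B cells (Ms4a1 and Pax5 among them) and 3 of 4 for NK cells (Ncr1, Klrb1c and Eomes) were at 0 in all 18. The T cell sum was at most 2.78 CPM in any library with IFNg and 3.75 to 5.69 CPM in controls, where it was all Cd4, and the B cell sum was at 0 but for 1 IFNg+LPS library with 0.522 CPM. The NK cell sum was Klrk1 alone, which encodes the activating receptor NKG2D, and it had 18.1 to 21.6 CPM with IFNg+TNF, 29.9 to 33.8 with IFNg+LPS, 62.8 to 71.9 with IFNg+IL1b, 56.5 to 67.1 with IFNg+hypoxia, 76.9 to 95.6 with IFNg and at most 1.77 in controls. Klrk1, singled out after its values were seen, rose with IFNg against control (log2 fold change 7.14 ± 0.52 SE, adjusted p = 5.96e-09) and fell with IFNg+TNF (log2 fold change -2.10 ± 0.37 SE, adjusted p = 0.000138) and IFNg+LPS (log2 fold change -1.40 ± 0.36 SE, adjusted p = 0.0083) against IFNg. The summed level of 10 markers of granulocytes and their precursors was 11.0 to 14.99 CPM with IFNg+TNF, 28.9 to 44.4 with IFNg+LPS, 85.4 to 99.0 with IFNg+IL1b, 65.9 to 91.1 with IFNg+hypoxia, 105.8 to 128 with IFNg and 107.6 to 163.6 in controls. Summed over 7 markers of plasmacytoid dendritic cells, a strong source of type I interferon, the level was 72.9 to 100.4 CPM with IFNg+TNF, 60.7 to 67.2 with IFNg+LPS, 61.4 to 75.2 with IFNg+IL1b, 91.6 to 106.9 with IFNg+hypoxia, 58.8 to 88.6 with IFNg and 108.7 to 133.5 in controls. Most of that sum was Tcf4, whereas Siglech, a defining surface receptor of these cells, was at most 2.27 CPM in any library. Summed over 6 markers, conventional dendritic cells had 16.3 to 18.3 CPM with IFNg+TNF, 22.8 to 33.5 with IFNg+LPS, 63.0 to 66.5 with IFNg+IL1b, 115.3 to 146.3 with IFNg+hypoxia, 87.2 to 95.4 with IFNg and 1.16 to 3.87 in controls. No marker of these 3 lists was at 0 in all libraries. The part of these shifts in the results below was not tested. In bulk RNA, fewer cells expressing a gene and less RNA per cell cannot be told apart.

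When libraries were scaled to the read totals implied by the deposited RPKM instead of by TMM, the median gene's log2 fold change shifted by -0.152 for IFNg against control, -0.319 for IFNg+TNF, 0.006 for IFNg+IL1b, -0.076 for IFNg+LPS and -0.245 for IFNg+hypoxia against IFNg, 0.243 for IFNg+LPS against IFNg+TNF, and -0.397 for IFNg+hypoxia against control. Directions below are those under TMM, and the counts of members under the RPKM totals are given beside them where they differ. Log2 fold changes carry their standard error (SE). A gene is said to have risen or fallen where its adjusted p was under 0.05.

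Per kilobase of the deposited width, which allows levels of different genes to be compared, Isg15 had the highest level of the members with IFNg+TNF (2522 CPM per kb) and with IFNg+LPS (1488). Ifit2 led with IFNg+IL1b (996), with IFNg+hypoxia (769) and with IFNg alone (900.4), and Rtp4 led in controls (362). The lowest level was that of Ifit3b with IFNg+TNF (10.4) and IFNg+LPS (13.2), and that of Mx2 with IFNg+IL1b (8.56), with IFNg+hypoxia (8.03), with IFNg (7.32) and in controls (9.56). The median member stood at 189.4 CPM per kb with IFNg+TNF, 180.2 with IFNg+LPS, 167 with IFNg+IL1b, 138 with IFNg+hypoxia, 143 with IFNg and 77.1 in controls. By mean CPM, IFNg+TNF was the highest of the 6 groups for 24 members and the control was the lowest for 28. Oasl1 spanned the widest range, its highest group mean being 34.2 times its lowest, followed by Ifi44 (12.2 times), Rsad2 (11.4), Mx1 (11.3), Isg15 (10.4) and Isg20 (10.2).

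**Figure D2:**
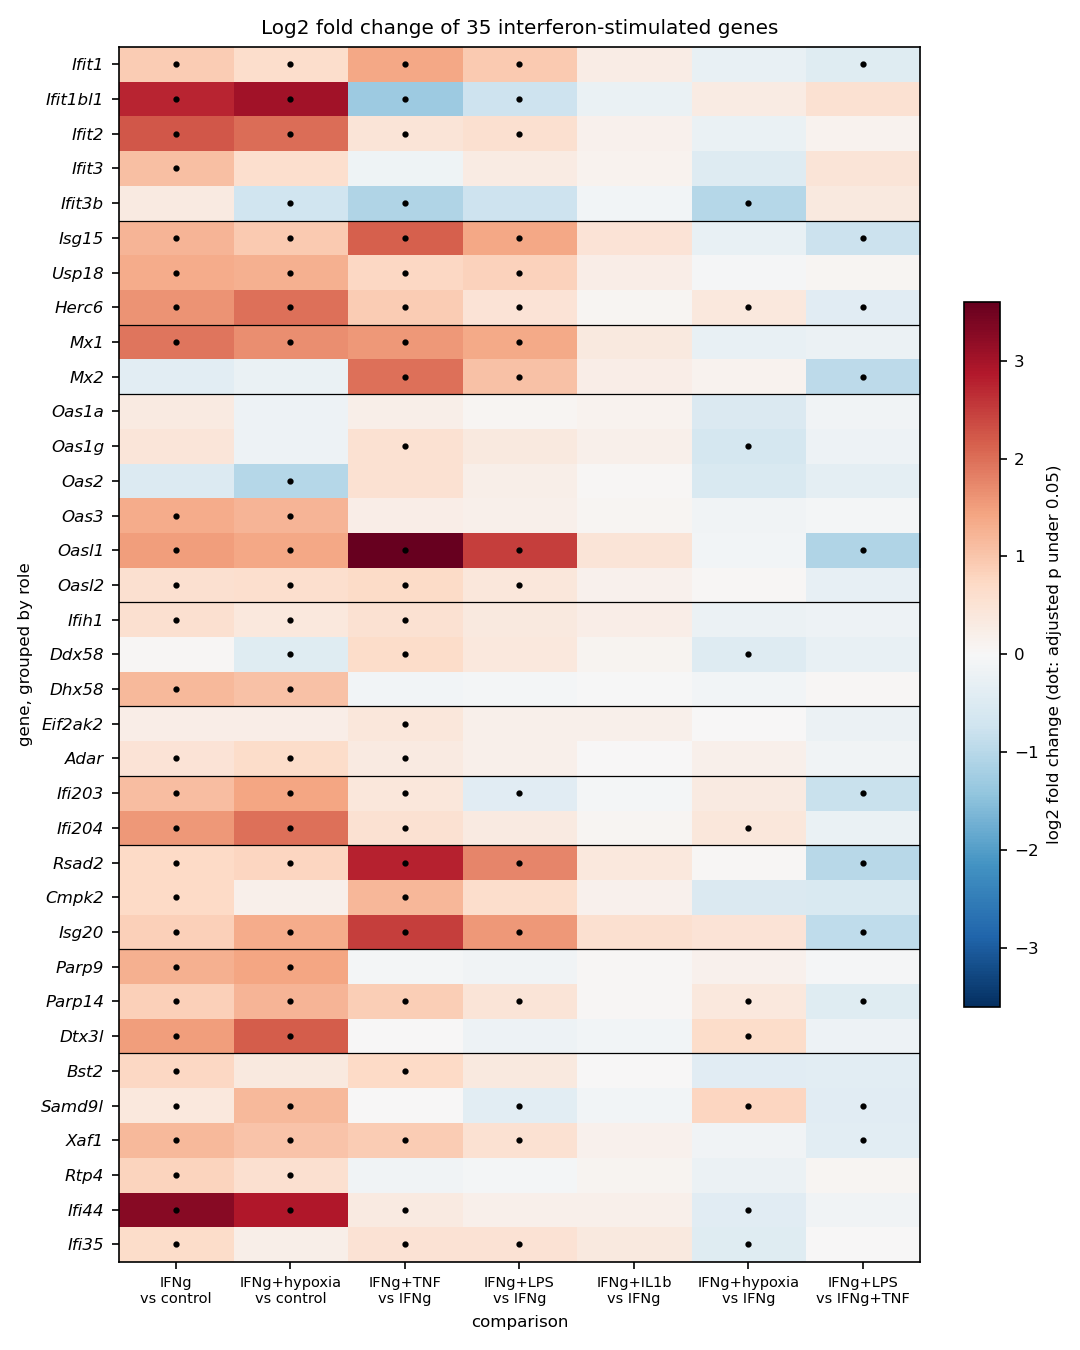
Log2 fold change of the 35 members (rows, grouped by role) in 7 comparisons (columns), under TMM scaling. Colour gives the log2 fold change, red where the first-named group was higher, and black dots mark an adjusted p under 0.05; 28, 24 and 24 members are marked higher in the first 3 columns, none with IFNg+IL1b, and 5 each way with IFNg+hypoxia against IFNg.

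IFNg alone was set against control to see which antiviral genes the type II cytokine raised by itself. Of the 35 members, 28 rose and 0 fell, with a median log2 fold change of 0.86, while 13.5% of all tested genes rose and 10% fell, with a median of -0.015. The RPKM totals gave 26 higher and 0 lower, without Cmpk2 (0.57, adjusted p = 0.0511) and Samd9l (0.22, adjusted p = 0.222). With those totals 1207 of all tested genes were higher and 1796 lower, against 1566 and 1161 under TMM. Every IFNg library stood above every control library in 28 members and below in 0, against 19.3% and 18.9% of all genes. Of the called members only Isg20 had libraries that overlapped.

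Ifi44, an antiviral gene with a GTP-binding motif, had 194, 210 and 197 CPM with IFNg, against 22.7, 23.1 and 16.1 CPM in controls, a log2 fold change of 3.28 ± 0.13 (SE, adjusted p = 4.6e-17). It was the largest rise of the members. In the IFIT family, whose proteins bind foreign RNA and block its translation, Ifit1bl1 had 241, 265 and 288 CPM with IFNg and 43.3, 31.4 and 44.2 CPM in controls, a log2 fold change of 2.74 ± 0.25 (SE, adjusted p = 9.01e-08). Ifit2 had 1214, 1185 and 1418 CPM with IFNg and 295, 256 and 264 CPM in controls, a log2 fold change of 2.23 ± 0.13 (SE, adjusted p = 1.19e-13). The groups were far apart in all 3 genes. Ifit1 had 235, 276 and 287 CPM with IFNg and 150.1, 149.5 and 128 CPM in controls (log2 fold change 0.90 ± 0.14 SE, adjusted p = 1.95e-05). Ifit3 had 226, 195 and 244 CPM with IFNg and 142, 85.5 and 88.7 CPM in controls (log2 fold change 1.07 ± 0.27 SE, adjusted p = 0.00784). Both rose by less than Ifit2 did, and Ifit3 varied more among controls. Their relative Ifit3b had 29.6, 18.6 and 32.1 CPM with IFNg and 25.4, 17.7 and 21.4 CPM in controls, and its groups overlapped (log2 fold change 0.32 ± 0.27 SE, adjusted p = 0.473).

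Isg15, the ubiquitin-like protein that is attached to other proteins in infected cells, had 289, 208 and 338 CPM with IFNg, against 111, 107 and 138 CPM in controls, a log2 fold change of 1.23 ± 0.14 (SE, adjusted p = 1.1e-07). Its ligase in mice, Herc6, had 373, 328 and 366 CPM with IFNg and 119.5, 102 and 129.8 CPM in controls (log2 fold change 1.61 ± 0.11 SE, adjusted p = 2.48e-12). Usp18, which removes Isg15 from proteins and damps the type I receptor, had 144, 133 and 196 CPM with IFNg and 52.2, 58.2 and 76.3 CPM in controls (log2 fold change 1.34 ± 0.16 SE, adjusted p = 2.14e-07). The whole ISG15 system was thus higher, with every IFNg library above every control library. Mx1, the GTPase that in mice acts against influenza viruses, had 100.2, 60.04 and 66.2 CPM with IFNg and 24.7, 14.2 and 20.3 CPM in controls, a log2 fold change of 1.93 ± 0.21 (SE, adjusted p = 1.39e-07). Mx2, annotated in GENCODE M21 as a polymorphic pseudogene, had 15.8, 13.9 and 13.5 CPM with IFNg and 16.1, 25.7 and 14.8 CPM in controls, which overlapped (log2 fold change -0.38 ± 0.22 SE, adjusted p = 0.234).

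The OAS family was split. Most of its proteins make oligoadenylates that switch on RNase L, but not Oasl1, which is inactive as an enzyme and in mice limits translation of Irf7. Oasl1 had 103, 144 and 131 CPM with IFNg and 31.7, 55.99 and 44.98 CPM in controls, a log2 fold change of 1.51 ± 0.16 (SE, adjusted p = 2.6e-08). Oas3 rose by 1.33 ± 0.12 (SE, adjusted p = 2.29e-09) and Oasl2 by 0.57 ± 0.11 (SE, adjusted p = 0.000252) on the log2 scale. Oas2 had 95.5, 46.6 and 56.6 CPM with IFNg and 116, 85.3 and 75.8 CPM in controls, and the first library of each group was the highest of its 3 (log2 fold change -0.48 ± 0.27 SE, adjusted p = 0.228). Without IFNg library 1 it was called lower (-0.84, adjusted p = 0.0201). Oas1a (0.32) and Oas1g (0.43) did not pass the test either, though Oas1g was called without control library 3 (0.63, adjusted p = 0.0284).

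Among the RNA sensors, Dhx58, a regulator of the other sensors, had 385, 294 and 382 CPM with IFNg and 159, 131 and 181 CPM in controls (log2 fold change 1.17 ± 0.14 SE, adjusted p = 1.13e-07). Ifih1, which binds long double-stranded RNA, had 225, 275 and 296 CPM with IFNg and 156, 197 and 176 CPM in controls (log2 fold change 0.59 ± 0.13 SE, adjusted p = 0.000997). Both rose without overlap. Ddx58, which binds RNA with a triphosphate end, had 208, 252 and 246 CPM with IFNg and 228, 243 and 217 CPM in controls, a difference of 0.04 ± 0.15 (SE, adjusted p = 0.903) with overlapping groups. Adar, which edits adenosine in double-stranded RNA, had 355, 372 and 412 CPM with IFNg and 272, 260 and 279 CPM in controls (log2 fold change 0.49 ± 0.10 SE, adjusted p = 0.000298). It rose in every library, by less than most members. Eif2ak2, the kinase that stops translation on double-stranded RNA, had 93.7, 93.4 and 92.3 CPM with IFNg and 81.1, 78.2 and 77.1 CPM in controls. Its libraries did not overlap, yet it did not pass the test (log2 fold change 0.24 ± 0.12 SE, adjusted p = 0.169).

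Both PYHIN genes, all 3 ADP-ribosylation genes and all 3 of Rsad2, Cmpk2 and Isg20 rose. Ifi204, a DNA sensor, had 759.6, 755 and 797 CPM with IFNg and 290, 239 and 256 CPM in controls (log2 fold change 1.56 ± 0.13 SE, adjusted p = 4.58e-10). Dtx3l, a ubiquitin ligase that pairs with Parp9, had 379, 481 and 496 CPM with IFNg and 141, 173 and 164 CPM in controls (log2 fold change 1.5 ± 0.13 SE, adjusted p = 5.77e-10). Parp9 rose by 1.28 ± 0.09 and Parp14, an ADP-ribosyltransferase, by 0.85 ± 0.12. Rsad2 (viperin), which makes a nucleotide that ends viral RNA chains, had 127, 130.4 and 162 CPM with IFNg and 76.2, 85.03 and 91.7 CPM in controls, separated by a smaller difference than in most members (log2 fold change 0.73 ± 0.15 SE, adjusted p = 0.000572). Bst2, the tether that holds budding virions at the cell surface, had 270.3, 259 and 224 CPM with IFNg and 137, 159.5 and 154 CPM in controls, close but without overlap (log2 fold change 0.74 ± 0.19 SE, adjusted p = 0.00687). Xaf1, a promoter of apoptosis, rose by 1.17 ± 0.12, Rtp4, a receptor transport protein, by 0.81 ± 0.10, and Ifi35 by 0.67 ± 0.13.

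Of the 28 calls, 3 depended on single libraries. Cmpk2, a nucleotide kinase of mitochondria, had 79.7, 90.1 and 104 CPM with IFNg and 37.1, 74.4 and 54.7 CPM in controls (log2 fold change 0.72 ± 0.22 SE, adjusted p = 0.0217) and lost its call without IFNg library 2 or 3 or control library 1 or 3 (adjusted p = 0.0502 to 0.101), as it did with no filter on low counts (adjusted p = 0.0564). The exonuclease gene Isg20 had 12.1, 20.2 and 25.1 CPM with IFNg and 7.87, 8.80 and 14.9 CPM in controls, where the third library overlapped the IFNg range (log2 fold change 0.86 ± 0.24 SE, adjusted p = 0.0085). It lost its call without IFNg library 3 or control library 1 or 2 (adjusted p = 0.0507 to 0.0914), and Samd9l, which restricts poxviruses, without IFNg library 1 or 3 or control library 3 (adjusted p = 0.0591 to 0.15).

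IFNg+TNF was set against IFNg to see what TNF changed in cells also given IFNg. Here 24 members rose and 2 fell, with a median log2 fold change of 0.54, while 22.1% of all tested genes rose and 22.6% fell, with a median of -0.049. Under the RPKM totals 13 were higher and 6 lower, with a median of 0.22. With those totals 1685 of all tested genes were higher and 3985 lower, with a median of -0.369, against 2560 and 2614 under TMM. All IFNg+TNF libraries were above all IFNg libraries in 25 members and below in 3, against 26.2% and 27.2% of all genes. The 13 that were higher in both scalings were Oasl1, Oasl2, Rsad2, Cmpk2, Isg20, Isg15, Usp18, Herc6, Mx1, Mx2, Ifit1, Parp14 and Xaf1, while Adar, at 0.31 under TMM, was at -0.01 under the RPKM totals. The 6 lower under the RPKM totals were Ifit1bl1 and Ifit3b, which were lower in both scalings, and Rtp4 (-0.44, adjusted p = 0.000901), Dhx58 (-0.41, adjusted p = 0.0116), Parp9 (-0.40, adjusted p = 0.000814) and Dtx3l (-0.30, adjusted p = 0.0457), which were not called under TMM.

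Oasl1 (ENSMUSG00000041827, chromosome 5, 114923240 to 114937915 in mm10) had 1364, 1611 and 1557 CPM with IFNg+TNF, against 103, 144 and 131 CPM with IFNg. The difference was 12-fold, a log2 fold change of 3.58 ± 0.17 (SE, adjusted p = 3.39e-15), and the largest of the members. Rsad2 (ENSMUSG00000020641, chromosome 12, 26442746 to 26456452) had 753, 1143 and 986 CPM with IFNg+TNF, against 127, 130.4 and 162 CPM with IFNg (log2 fold change 2.78 ± 0.16 SE, adjusted p = 1.51e-13). Cmpk2, its neighbour on chromosome 12, had 164, 175 and 284 CPM with IFNg+TNF and 79.7, 90.1 and 104 CPM with IFNg (log2 fold change 1.19 ± 0.22 SE, adjusted p = 0.000169). Isg20 had 101, 95.4 and 126 CPM with IFNg+TNF and 12.1, 20.2 and 25.1 CPM with IFNg (log2 fold change 2.49 ± 0.24 SE, adjusted p = 2.67e-09). In these 4 genes the lowest IFNg+TNF library stood above the highest IFNg library.

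All 3 genes of the ISG15 system rose. Isg15 (ENSMUSG00000035692, chromosome 4, 156199424 to 156200818) had 1287, 1190 and 1200 CPM with IFNg+TNF, against 289, 208 and 338 CPM with IFNg (log2 fold change 2.14 ± 0.14 SE, adjusted p = 2.11e-12). Its libraries agreed more closely with IFNg+TNF than with IFNg, where library 2 was the lowest. Herc6 rose by 0.90 ± 0.10 (SE, adjusted p = 5.79e-08) and Usp18 by 0.75 ± 0.16 (SE, adjusted p = 0.000294). Both Mx genes rose too. Mx2 had 57.1, 60.2 and 52.98 CPM with IFNg+TNF and 15.8, 13.9 and 13.5 CPM with IFNg (log2 fold change 1.98 ± 0.22 SE, adjusted p = 3.51e-08), and Mx1 had 215, 237 and 216 CPM with IFNg+TNF and 100.2, 60.04 and 66.2 CPM with IFNg (log2 fold change 1.56 ± 0.20 SE, adjusted p = 9.29e-07). Mx1 and Mx2 share 8.7% and 8.3% of their 50-base coding windows, and reads from those stretches may have been assigned to either gene.

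The IFIT family had calls both ways in both scalings. Under the RPKM totals so had the ADP-ribosylation genes, with Parp14 higher and Parp9 and Dtx3l lower. Ifit1 (ENSMUSG00000034459, chromosome 19, 34640871 to 34650009) had 547, 736 and 787 CPM with IFNg+TNF, against 235, 276 and 287 CPM with IFNg (log2 fold change 1.38 ± 0.14 SE, adjusted p = 9.27e-09). Ifit1bl1 (ENSMUSG00000079339, chromosome 19, 34592891 to 34601956) had 70.3, 126 and 126 CPM with IFNg+TNF, against 241, 265 and 288 CPM with IFNg (log2 fold change -1.31 ± 0.24 SE, adjusted p = 0.000178). The groups did not overlap for either gene, and the directions were opposite. Ifit3b had 10.8, 16.5 and 10.5 CPM with IFNg+TNF and 29.6, 18.6 and 32.1 CPM with IFNg (log2 fold change -1.08 ± 0.28 SE, adjusted p = 0.00219), while its near copy Ifit3 had 152, 263 and 178 CPM with IFNg+TNF and 226, 195 and 244 CPM with IFNg, which overlapped (log2 fold change -0.16 ± 0.27 SE, adjusted p = 0.662). Ifit3 and Ifit3b share 68.5% of their 50-base coding windows, so how the counting assigned reads between them is uncertain. Ifit1 shares 13.9% of its windows and Ifit1bl1 7.4%, mostly with Ifit1bl2. Ifit2, a partner of Ifit1, rose by 0.45 ± 0.12 (SE, adjusted p = 0.0036).

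Within the OAS family, Oasl2 rose by 0.70 ± 0.11 (SE, adjusted p = 9.24e-06) and Oas1g by 0.54 ± 0.19 (SE, adjusted p = 0.0216). Oas2 had 126, 83.2 and 84.3 CPM with IFNg+TNF and 95.5, 46.6 and 56.6 CPM with IFNg, again with the first library highest in each group, and was not called with edgeR (log2 fold change 0.56 ± 0.27 SE, adjusted p = 0.0979). DESeq2 called it higher (0.58, adjusted p = 0.0453), as did edgeR without IFNg library 1 (0.93, adjusted p = 0.00593). Oas3 had 1001, 1086 and 1057 CPM with IFNg+TNF, against 749, 959 and 973 CPM with IFNg, a small difference without overlap that did not pass the test (log2 fold change 0.23 ± 0.12 SE, adjusted p = 0.129). Oas1a and Oas1g share 48.3% and 49.3% of their windows, and their values are uncertain to that extent.

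Of the sensors, Ddx58 had 282, 429 and 400.3 CPM with IFNg+TNF and 208, 252 and 246 CPM with IFNg (log2 fold change 0.65 ± 0.15 SE, adjusted p = 0.000622). Ifih1 had 330.3, 406 and 419.6 CPM with IFNg+TNF and 225, 275 and 296 CPM with IFNg (log2 fold change 0.54 ± 0.13 SE, adjusted p = 0.00121). Both rose, while Dhx58 had a log2 fold change of -0.09 ± 0.13 (SE, adjusted p = 0.622). Under the RPKM totals neither Ddx58 (0.33, adjusted p = 0.0631) nor Ifih1 (0.22, adjusted p = 0.152) was called. Bst2 had 442, 298 and 505 CPM with IFNg+TNF and 270.3, 259 and 224 CPM with IFNg (log2 fold change 0.72 ± 0.19 SE, adjusted p = 0.00439), and its lowest IFNg+TNF library stood just above the highest IFNg library. Parp14 had 2106, 2796 and 2196 CPM with IFNg+TNF and 1222, 1307 and 1336 CPM with IFNg (log2 fold change 0.88 ± 0.12 SE, adjusted p = 1.27e-06), and Xaf1 had 310.3, 306 and 359.5 CPM with IFNg+TNF and 176, 156 and 184 CPM with IFNg (log2 fold change 0.92 ± 0.12 SE, adjusted p = 3.38e-07). The remaining rises were smaller. Ifi204 had 978, 1288 and 1119 CPM with IFNg+TNF and 759.6, 755 and 797 CPM with IFNg (log2 fold change 0.55 ± 0.13 SE, adjusted p = 0.00114), and Eif2ak2 had 109, 125 and 136 CPM with IFNg+TNF and 93.7, 93.4 and 92.3 CPM with IFNg (log2 fold change 0.40 ± 0.12 SE, adjusted p = 0.00839). Ifi44 had 254, 227 and 274 CPM with IFNg+TNF and 194, 210 and 197 CPM with IFNg (log2 fold change 0.33 ± 0.12 SE, adjusted p = 0.0271). Adar had 465, 475 and 470.2 CPM with IFNg+TNF and 355, 372 and 412 CPM with IFNg, a log2 fold change of 0.31 that was -0.01 under the RPKM totals. Ifi35 (0.52) and Ifi203 (0.41) rose as well. Adar was no exception, since Ifi44 (0.01), Eif2ak2 (0.08), Ifi203 (0.09), Ifit2 (0.14) and Ifi35 (0.20) were not called under the RPKM totals either. Nor were Oas1g (0.22), Ifi204 (0.23) and Bst2 (0.40). Parp9 (-0.08), Dtx3l (0.02), Samd9l (0.02) and Rtp4 (-0.12) were not called under TMM.

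Small rises with IFNg+TNF were lost without single libraries. These were Ifi44 without IFNg+TNF library 1 or 3 or IFNg library 1 or 3 (adjusted p = 0.0566 to 0.118), Oas1g without IFNg+TNF library 3 or IFNg library 2 (adjusted p = 0.0818 to 0.0863), Ifi203 without IFNg+TNF library 2 (adjusted p = 0.137), Adar without IFNg library 1 (adjusted p = 0.0622), and Eif2ak2 without IFNg+TNF library 3 (adjusted p = 0.0514).

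**Figure D3:**
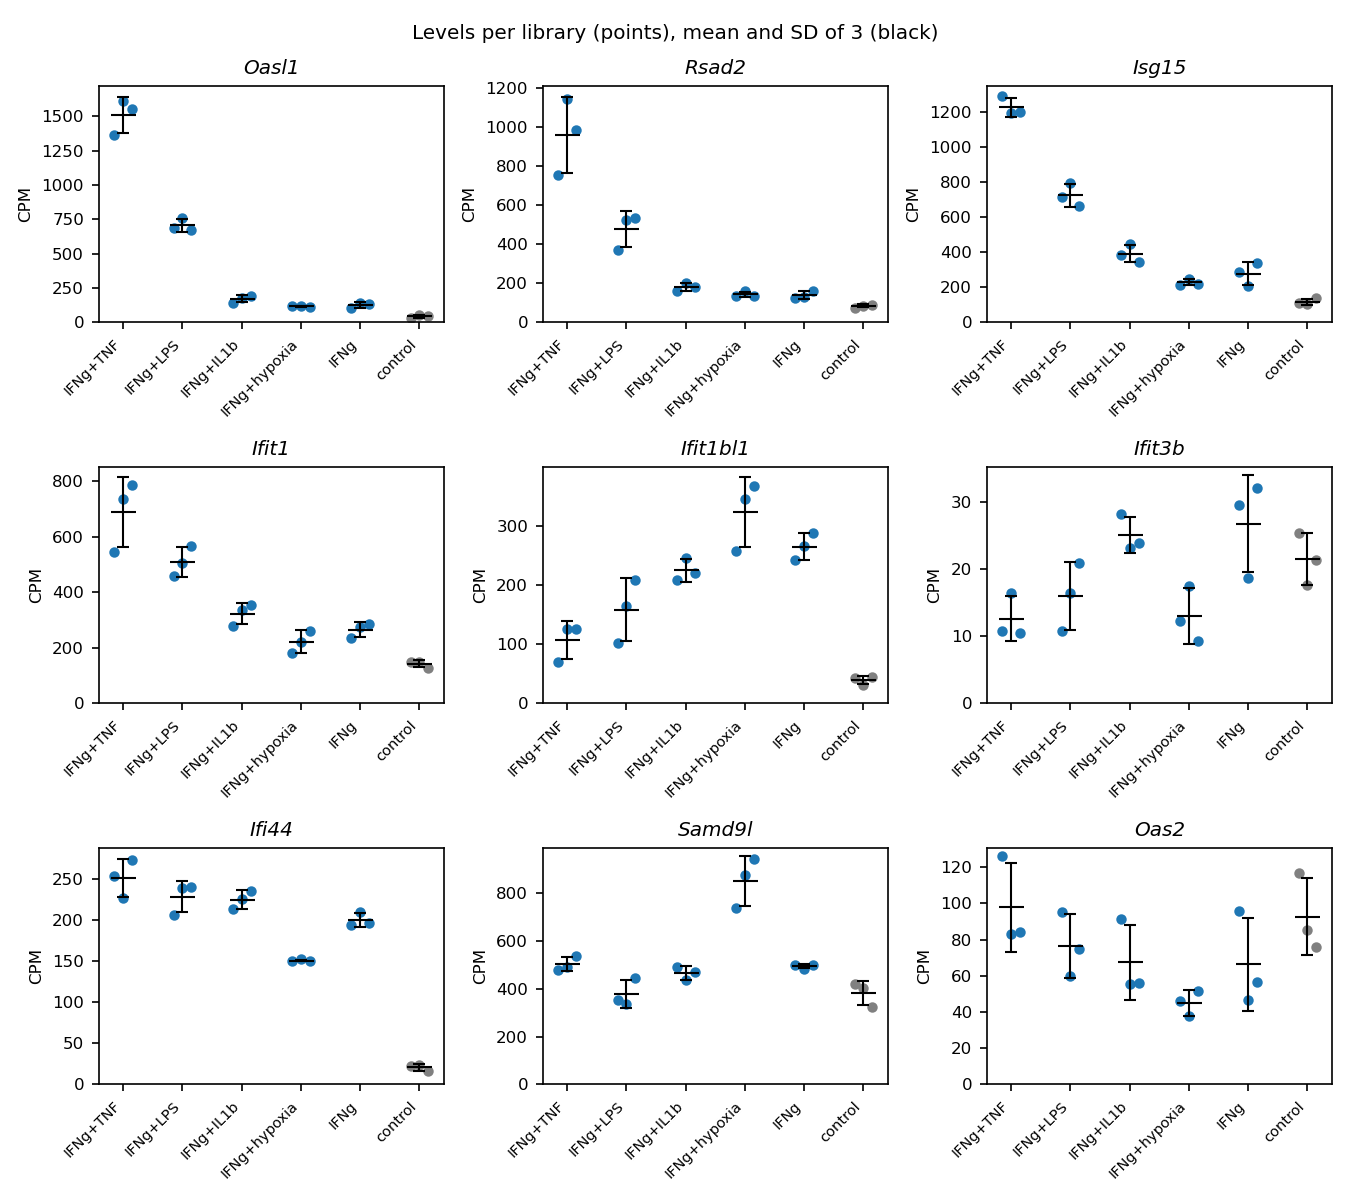
CPM of 9 members in each library. Points are libraries 1 to 3 from left to right, black marks are the mean and SD (n = 3), the y axes are linear and start at 0, and groups run from IFNg+TNF to control; Oasl1, Rsad2, Isg15 and Ifit1 stand highest with IFNg+TNF, Ifit1bl1 and Samd9l with IFNg+hypoxia, and Ifit3b with IFNg.

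IFNg+LPS against IFNg gave 14 rises and 3 falls, with a median log2 fold change of 0.35 against -0.004 for all genes, of which 10.2% rose and 10.1% fell. The share of members that fell was near that of all genes. The RPKM totals gave 14 higher and 4 lower, Ifit3b being added (-0.81, adjusted p = 0.0367). With those totals 962 of all tested genes were higher and 1441 lower, against 1184 and 1164 under TMM. All IFNg+LPS libraries stood above all IFNg libraries in 19 members and below in 4, against 16.3% and 17.4% of all genes. All 14 genes that rose here under TMM had also risen with IFNg+TNF, in a comparison that shares the IFNg libraries. Under the RPKM totals 2 of them, Ifit2 (0.14, adjusted p = 0.37) and Ifi35 (0.20, adjusted p = 0.21), were not called with IFNg+TNF. Oasl1 had 688, 762 and 673 CPM with IFNg+LPS, against 103, 144 and 131 CPM with IFNg (log2 fold change 2.49 ± 0.16 SE, adjusted p = 1.28e-11), Rsad2 had 371, 523 and 535 CPM with IFNg+LPS, against 127, 130.4 and 162 CPM with IFNg (log2 fold change 1.77 ± 0.15 SE, adjusted p = 2.3e-09), and Isg15 had 716, 793 and 660.1 CPM with IFNg+LPS, against 289, 208 and 338 CPM with IFNg (log2 fold change 1.38 ± 0.14 SE, adjusted p = 3.16e-08). None of these groups overlapped.

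Isg20 rose by 1.57 ± 0.23 (SE, adjusted p = 1.26e-05) on the log2 scale. Mx1 had 218, 166 and 198 CPM with IFNg+LPS and 100.2, 60.04 and 66.2 CPM with IFNg (log2 fold change 1.36 ± 0.20 SE, adjusted p = 1.91e-05). Mx2 had 34.5, 25.98 and 29.2 CPM with IFNg+LPS and 15.8, 13.9 and 13.5 CPM with IFNg (log2 fold change 1.05 ± 0.22 SE, adjusted p = 0.000767). For both Mx genes every IFNg+LPS library was above every IFNg library. Ifit1 had 460.1, 504 and 566 CPM with IFNg+LPS and 235, 276 and 287 CPM with IFNg (log2 fold change 0.94 ± 0.14 SE, adjusted p = 1.46e-05), without overlap. The other rises were Usp18 (0.83), Ifit2 (0.58), Xaf1 (0.54), Ifi35 (0.53), Herc6 (0.49), Parp14 (0.45) and Oasl2 (0.41). Whether RNA sensors were called depended on the settings. Ifih1 had 289, 349.6 and 378 CPM with IFNg+LPS and 225, 275 and 296 CPM with IFNg and was not called with edgeR (log2 fold change 0.35 ± 0.13 SE, adjusted p = 0.0533). DESeq2 called it higher (0.36, adjusted p = 0.0398), and so did edgeR with no filter on low counts (adjusted p = 0.039), with the filter at 50 counts (adjusted p = 0.0491), without IFNg+LPS library 1 (adjusted p = 0.0122) and without IFNg library 3 (adjusted p = 0.0375). Ddx58 was not called either (log2 fold change 0.37 ± 0.15 SE, adjusted p = 0.0732), except with no filter on low counts (adjusted p = 0.0482) and without IFNg+LPS library 1 (adjusted p = 0.0216). Bst2 had 406, 341 and 216 CPM with IFNg+LPS and 270.3, 259 and 224 CPM with IFNg, where IFNg+LPS library 3 was the lowest of all 6 (log2 fold change 0.35 ± 0.19 SE, adjusted p = 0.23). Cmpk2 had 118, 166 and 137 CPM with IFNg+LPS and 79.7, 90.1 and 104 CPM with IFNg (log2 fold change 0.63 ± 0.22 SE, adjusted p = 0.0507). Oas2 had 95.2, 59.6 and 74.5 CPM with IFNg+LPS and 95.5, 46.6 and 56.6 CPM with IFNg (log2 fold change 0.21 ± 0.27 SE, adjusted p = 0.682). None of these 3 was called by edgeR in the model of all 18 libraries. Cmpk2 was called higher by DESeq2 (0.63, adjusted p = 0.0197), with the filter at 50 counts (adjusted p = 0.0448), in a fit of only the groups compared (adjusted p = 0.00532) and without IFNg+LPS library 1 (adjusted p = 0.0357). Bst2 was called higher without IFNg+LPS library 3 (0.57, adjusted p = 0.0156). Adar with 404, 466 and 429 CPM (0.19) and Ifi44 with 207, 239 and 240.4 CPM (0.19) in IFNg+LPS libraries were not called either.

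The 3 falls were Ifit1bl1, with 102, 164 and 208 CPM with IFNg+LPS and 241, 265 and 288 CPM with IFNg (log2 fold change -0.75 ± 0.23 SE, adjusted p = 0.03), Ifi203 (log2 fold change -0.40 ± 0.13 SE, adjusted p = 0.0362), and Samd9l, with 354, 337 and 444 CPM with IFNg+LPS and 501, 485 and 501 CPM with IFNg (log2 fold change -0.39 ± 0.12 SE, adjusted p = 0.0207). Ifi203 had 187, 218 and 283 CPM with IFNg+LPS and 300, 314 and 290.2 CPM with IFNg, and it was among the genes that rose with IFNg+TNF. Ifit3 was the least reproducible member in this group, with 175, 246 and 393 CPM with IFNg+LPS and a coefficient of variation of 40.9%, against 226, 195 and 244 CPM with IFNg (log2 fold change 0.29 ± 0.27 SE, adjusted p = 0.533).

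Each fall was lost without single libraries, Ifit1bl1 without IFNg+LPS library 1 or 2 or IFNg library 2 or 3 (adjusted p = 0.0695 to 0.12), Ifi203 without IFNg+LPS library 1 or 2 or IFNg library 1 or 2 or 3 (adjusted p = 0.0599 to 0.224) and Samd9l without IFNg+LPS library 1 or 2 or IFNg library 1 or 3 (adjusted p = 0.057 to 0.124). Ifit1bl1 also lost it with no filter on low counts (adjusted p = 0.0788), and Ifi203 in a fit of only the groups compared (adjusted p = 0.0605). The rise of Oasl2 was lost without IFNg library 1 (adjusted p = 0.0728) and that of Parp14 without IFNg+LPS library 3 (adjusted p = 0.0516). Other settings added calls. Ifit3b was lower with no filter on low counts (-0.74, adjusted p = 0.0368), without IFNg library 2 (-0.95, adjusted p = 0.0236) and without IFNg+LPS library 3 (-0.98, adjusted p = 0.021). Ifi204 was higher without IFNg+LPS library 1 (0.41, adjusted p = 0.0415) or 2 (0.42, adjusted p = 0.0402).

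IFNg+LPS was set directly against IFNg+TNF, since a call with one addition and none with the other does not show that they differ. With edgeR in the model of all 18 libraries, no member was higher with IFNg+LPS and 11 were lower. The median was -0.22 against 0.017 for all genes, of which 12.2% were higher and 13.1% lower. The RPKM totals gave 3 higher (Rtp4, Ifit2 and Ifit1bl1) and 6 lower (Oasl1, Rsad2, Mx2, Isg20, Ifi203 and Isg15), with a median of 0.02. With those totals 2621 of all tested genes were higher and 884 lower, with a median of 0.261, against 1407 and 1519 under TMM. At an unadjusted p under 0.05 edgeR had 1 member higher, and DESeq2 after adjustment had 1, Ifit1bl1 (0.55, adjusted p = 0.0406). In 0 members were all IFNg+LPS libraries above those with IFNg+TNF and in 11 all were below, against 16.6% and 18.3% of all genes. Oasl1 averaged 708 ± 47.5 CPM with IFNg+LPS and 1511 ± 129.6 CPM with IFNg+TNF (SD, n = 3 each), a log2 fold change of -1.09 ± 0.15 (SE, adjusted p = 4.34e-06). Rsad2 averaged 476 ± 91.8 CPM with IFNg+LPS and 961 ± 196 CPM with IFNg+TNF (log2 fold change -1.01 ± 0.15 SE, adjusted p = 1.06e-05). The highest IFNg+LPS library stayed below the lowest IFNg+TNF library for both genes.

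Mx2 had a log2 fold change of -0.93 ± 0.22 (SE, adjusted p = 0.00192), Isg20 of -0.92 ± 0.23 (SE, adjusted p = 0.00316) and Isg15 of -0.76 ± 0.14 (SE, adjusted p = 0.000142). Ifi203 had 187, 218 and 283 CPM with IFNg+LPS and 342, 484 and 379 CPM with IFNg+TNF (log2 fold change -0.81 ± 0.13 SE, adjusted p = 4.38e-05), and its groups did not overlap. Ifit1 (-0.44), Parp14 (-0.43), Herc6 (-0.41), Samd9l (-0.41) and Xaf1 (-0.38) were lower by smaller amounts. Parp14 had 1438, 1850 and 1983 CPM with IFNg+LPS and 2106, 2796 and 2196 CPM with IFNg+TNF, Xaf1 had 257, 224 and 269 CPM with IFNg+LPS and 310.3, 306 and 359.5 CPM with IFNg+TNF, and Samd9l had 354, 337 and 444 CPM with IFNg+LPS and 479, 494 and 536 CPM with IFNg+TNF. Usp18 had 291, 322 and 228 CPM with IFNg+LPS and 260.1, 232 and 302 CPM with IFNg+TNF, a difference of 0.08 with a 95% interval of -0.24 to 0.40. Mx1 differed by -0.20 with an interval of -0.60 to 0.21, and Ifi44 by -0.14 with an interval of -0.38 to 0.11. These 3 genes are not shown to be equal. Each interval lies within 1 log2 unit of 0, but so do most of the differences called in this comparison. The intervals are those under TMM. Under the RPKM totals Usp18 was at 0.32, Mx1 at 0.05 and Ifi44 at 0.11, and none of them was called.

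Of the smaller differences, Ifit1 lost its call without IFNg+LPS library 1 or 2 or IFNg+TNF library 2 or 3 (adjusted p = 0.068 to 0.138), Samd9l without IFNg+LPS library 1 or 2 or IFNg+TNF library 3 (adjusted p = 0.0558 to 0.081), Parp14 without IFNg+LPS library 1 or IFNg+TNF library 2 (adjusted p = 0.0971 to 0.1) and Xaf1 without IFNg+LPS library 2 or IFNg+TNF library 3 (adjusted p = 0.103 to 0.106). The same 4 lost it in a fit of only the groups compared (adjusted p = 0.0636 to 0.0808). DESeq2 also called Oasl2 (-0.30, adjusted p = 0.0278) and Cmpk2 (-0.57, adjusted p = 0.0333) lower. Leaving out single libraries in edgeR also added calls. Ifit1bl1 was higher without IFNg+LPS library 1 (0.82, adjusted p = 0.00688). Ifi204 (-0.46, adjusted p = 0.00473) and Ddx58 (-0.42, adjusted p = 0.0472) were lower without IFNg+LPS library 3, and Bst2 without IFNg+TNF library 2 (-0.56, adjusted p = 0.0282). Without IFNg+TNF library 1, Ddx58 (-0.44), Oasl2 (-0.33) and Cmpk2 (-0.70) were lower. Ifit1 was also the called member whose libraries overlapped in this comparison.

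**Figure D4:**
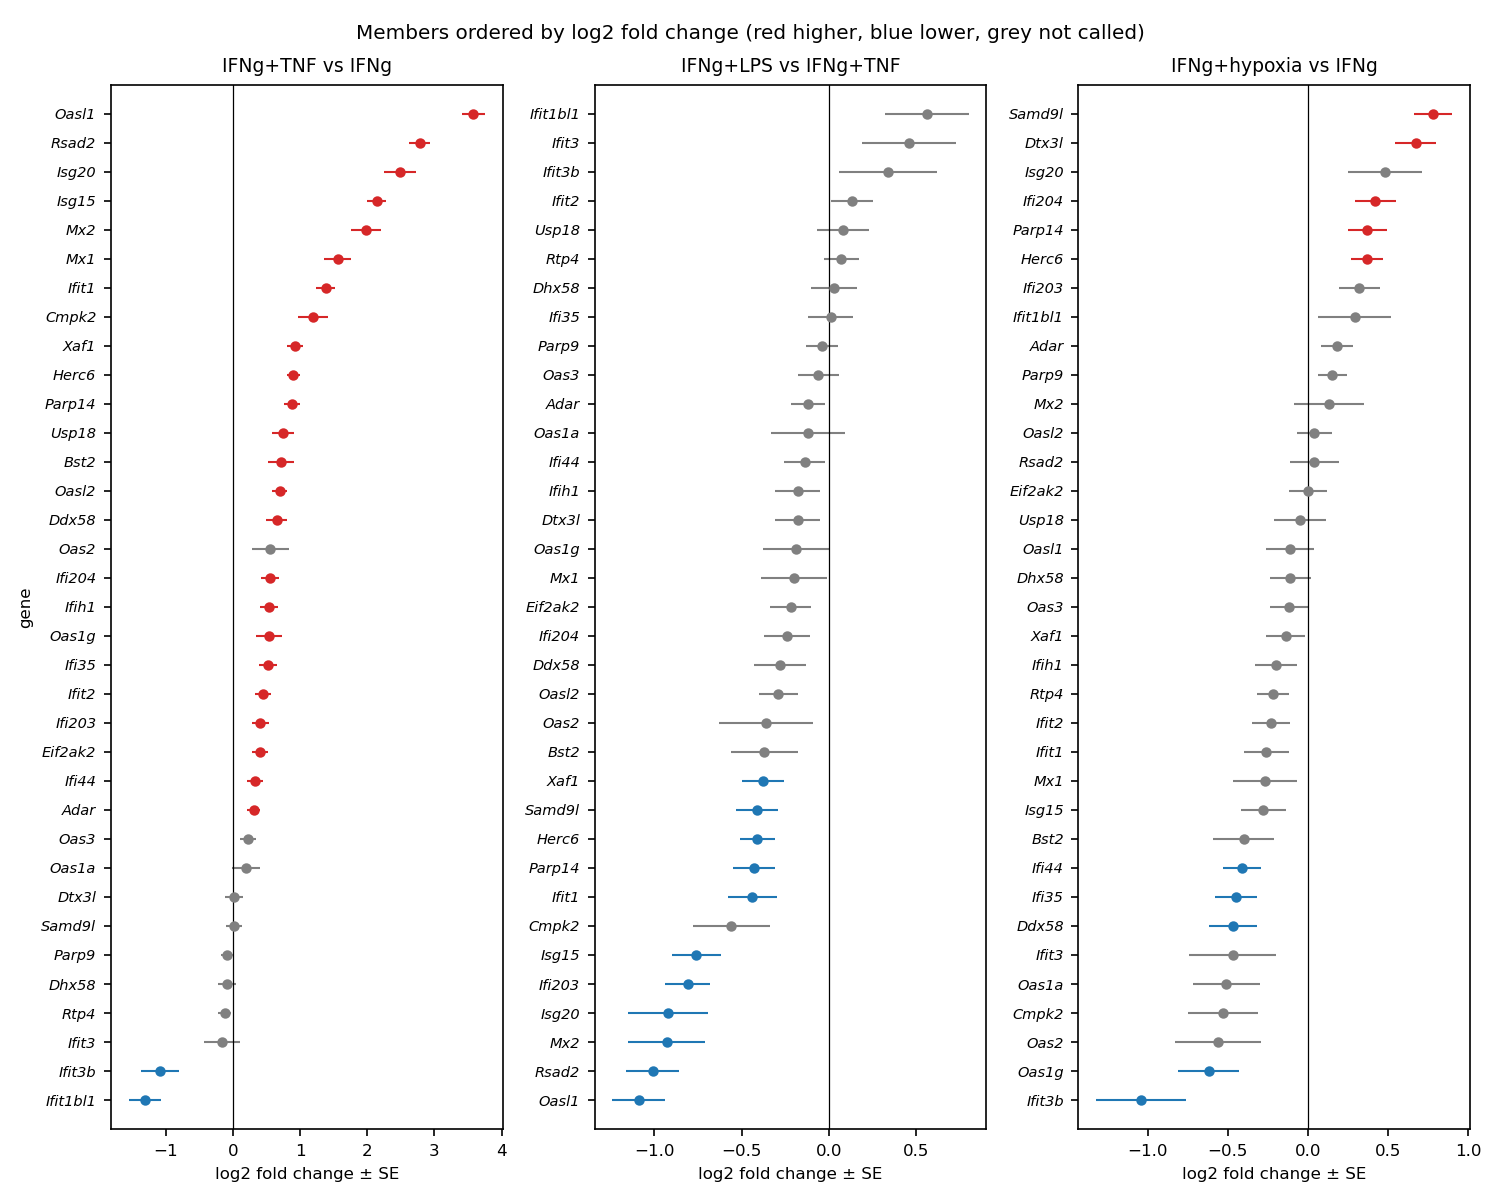
Log2 fold change with SE (x axes, separate scales) of the 35 members, ordered within each of 3 comparisons under TMM scaling. Red points rose, blue points fell and grey points did not pass an adjusted p of 0.05; Oasl1 is at the top of the first panel and at the bottom of the second, and Samd9l and Ifit3b are the ends of the third.

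IFNg+IL1b against IFNg showed no called member with edgeR's quasi-likelihood test, in a comparison in which 0.303% of all tested genes were called. The median member was at 0.13 against -0.001 for all genes, and 5 members had an unadjusted p under 0.05. DESeq2 called 1 member, Isg15. Isg15 had 384, 444 and 346 CPM with IFNg+IL1b, against 289, 208 and 338 CPM with IFNg, which did not overlap (log2 fold change 0.49 ± 0.14 SE, adjusted p = 0.211 with edgeR, 0.49 with an adjusted p of 0.0463 with DESeq2). Oasl1 had 145, 181 and 190.3 CPM with IFNg+IL1b and 103, 144 and 131 CPM with IFNg, also without overlap (log2 fold change 0.45 ± 0.15 SE, adjusted p = 0.453). The other 3 with an unadjusted p under 0.05 were Rsad2 (0.38), Isg20 (0.57) and Ifi35 (0.34). Ifit1 had 279.9, 337 and 353 CPM with IFNg+IL1b (log2 fold change 0.28 ± 0.14 SE, adjusted p = 1.0), Mx1 had 124, 85.4 and 78.03 CPM (log2 fold change 0.34 ± 0.20 SE, adjusted p = 1.0) and Usp18 had 167, 208 and 180.5 CPM (log2 fold change 0.23 ± 0.16 SE, adjusted p = 1.0). All 3 overlapped their IFNg values given above. With IFNg+IL1b, Ifit3 had 236, 266 and 226, Cmpk2 83.2, 105 and 117, Oas2 91.3, 55.4 and 55.8, Ifih1 280.5, 321 and 347, Bst2 252, 236 and 275 and Adar 358, 400.1 and 381 CPM, and their log2 fold changes reached at most 0.25 (Ifih1). Rsad2 had 161, 204 and 181 CPM, and Ifi44, at 214, 226 and 236 CPM, lay just above its IFNg range. In 6 members every IFNg+IL1b library was above every IFNg library and in 0 every one was below, against 6.71% and 6.70% of all genes.

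IFNg+hypoxia against IFNg gave 5 rises and 5 falls among the members, with a median of -0.12 against -0.011 for all genes, of which 13.5% rose and 11.8% fell. Under TMM the shares of members that rose and fell were thus near those of all genes. The count depended on the scaling, since the RPKM totals gave 2 higher and 17 lower. All tested genes shifted the same way, with 888 higher and 2564 lower under those totals, against 1556 and 1362 under TMM. Without IFNg library 1 or 2, or IFNg+hypoxia library 3, 6 members were called. All IFNg+hypoxia libraries stood above all IFNg libraries in 8 members and below in 11, against 22.3% and 20.9% of all genes. Samd9l had 739, 875 and 945 CPM with IFNg+hypoxia, against 501, 485 and 501 CPM with IFNg (log2 fold change 0.78 ± 0.12 SE, adjusted p = 1.67e-05). Dtx3l had 701, 699 and 762 CPM with IFNg+hypoxia, against 379, 481 and 496 CPM with IFNg (log2 fold change 0.67 ± 0.13 SE, adjusted p = 0.000247). Both stood apart in every library and were higher in both scalings. Herc6 (log2 fold change 0.37 ± 0.10 SE, adjusted p = 0.00862), Ifi204 (log2 fold change 0.42 ± 0.13 SE, adjusted p = 0.0194) and Parp14 (log2 fold change 0.37 ± 0.12 SE, adjusted p = 0.0249) were higher under TMM and not called under the RPKM totals (0.13, 0.17 and 0.13).

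The falls were those of Ifit3b, with 12.3, 17.4 and 9.27 CPM with IFNg+hypoxia and 29.6, 18.6 and 32.1 CPM with IFNg (log2 fold change -1.04 ± 0.28 SE, adjusted p = 0.00628), Oas1g (log2 fold change -0.62 ± 0.19 SE, adjusted p = 0.0193), Ddx58 (log2 fold change -0.47 ± 0.15 SE, adjusted p = 0.0195), Ifi35 (log2 fold change -0.45 ± 0.13 SE, adjusted p = 0.0145) and Ifi44 (log2 fold change -0.41 ± 0.12 SE, adjusted p = 0.0127). Oas1g had 20.3, 34.4 and 22.3 CPM with IFNg+hypoxia and 40.4, 35.3 and 42.2 CPM with IFNg, and Ddx58 had 151, 186 and 174 CPM with IFNg+hypoxia and 208, 252 and 246 CPM with IFNg. Ifi44 had 150.5, 152 and 150.2 CPM with IFNg+hypoxia and 194, 210 and 197 CPM with IFNg, with little spread in either group. These 5 fell in both scalings. Genes with the largest rises under IFNg+TNF overlapped their IFNg values here. Oasl1 had 119, 118 and 113 CPM with IFNg+hypoxia (log2 fold change -0.11, 95% interval -0.43 to 0.20), Rsad2 had 136, 159 and 138 CPM (0.04, -0.27 to 0.35), and Isg15 had 216, 249 and 221 CPM (-0.28, -0.57 to 0.00). Isg20 had 23.98, 27.5 and 28.5 CPM with IFNg+hypoxia and 12.1, 20.2 and 25.1 CPM with IFNg. It was not called in the model of all 18 libraries, but edgeR without IFNg library 3 called it higher (0.73, adjusted p = 0.0423). Under TMM, edgeR in the model of all 18 libraries called none of the members that follow. Ifit1 had 180.3, 223 and 262 CPM with IFNg+hypoxia (-0.26), Ifit3 125, 168 and 189 (-0.47), Mx1 62.0, 69.1 and 56.4 (-0.27) and Usp18 153, 154 and 149.9 (-0.05). Cmpk2 had 63.5, 60.2 and 65.6 CPM (-0.53), Ifih1 219, 229 and 245 (-0.20), Bst2 217, 197 and 155 (-0.40) and Adar 441, 418 and 429.5 (0.18). The 12 members that were lower under the RPKM totals but not called under TMM were Oas2 (-0.81), Cmpk2 (-0.77), Oas1a (-0.75), Bst2 (-0.65), Isg15 (-0.52), Ifit1 (-0.51), Ifit2 (-0.47), Rtp4 (-0.47), Ifih1 (-0.44), Xaf1 (-0.39), Oas3 (-0.36) and Dhx58 (-0.35), with adjusted p = 0.00116 to 0.042. A fit of only the groups compared called Cmpk2 (-0.55, adjusted p = 0.000812), Bst2 (-0.42, adjusted p = 0.00286) and Ifit3 (-0.48, adjusted p = 0.00386) lower, among others. Without IFNg library 2, Isg15 was called lower (-0.45, adjusted p = 0.0151). Mitochondrially encoded genes took 0.07 to 0.09% of counts in the IFNg+hypoxia libraries and 0.39 to 0.60% in the IFNg libraries, and the part of this in the members' values was not tested.

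Single libraries decided 8 of these 10 calls. Among the rises, Ifi204 lost its call without IFNg+hypoxia library 3 or IFNg library 1 or 2 (adjusted p = 0.0594 to 0.0839), Parp14 without IFNg+hypoxia library 1 or 3 or IFNg library 1 or 2 (adjusted p = 0.0541 to 0.11) and Herc6 without IFNg library 2 (adjusted p = 0.0543). Among the falls, Oas1g lost it without IFNg+hypoxia library 1 or 3 or IFNg library 1 or 3 (adjusted p = 0.0561 to 0.123), Ddx58 without IFNg+hypoxia library 1 or IFNg library 2 or 3 (adjusted p = 0.0686 to 0.105), Ifi35 without IFNg library 1 or 3 (adjusted p = 0.0571 to 0.0702), Ifi44 without IFNg library 2 (adjusted p = 0.051) and Ifit3b without IFNg+hypoxia library 3 (adjusted p = 0.0507). Samd9l and Dtx3l were called in each of those runs.

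Against controls, IFNg+hypoxia gave 24 higher and 3 lower members, with a median of 0.95 against -0.038 for all genes, of which 21% were higher and 19.1% lower. The RPKM totals gave 20 higher and 6 lower, where Mx2 (-0.65), Oas1a (-0.58) and Oas1g (-0.58) were the added falls. With those totals 1503 of all tested genes were higher and 4312 lower, against 2429 and 2213 under TMM. All IFNg+hypoxia libraries stood above all controls in 26 members and below in 3, against 25.4% and 25% of all genes. Ifit1bl1 had 257, 345 and 368 CPM with IFNg+hypoxia, against 43.3, 31.4 and 44.2 CPM in controls (log2 fold change 3.03 ± 0.25 SE, adjusted p = 1.36e-08). Ifi44 was higher by 2.87 ± 0.13 (SE, adjusted p = 4.31e-16) and Dtx3l by 2.18 ± 0.13 (SE, adjusted p = 2.6e-13). Among the other roles, Herc6 with 447, 453 and 484 CPM in IFNg+hypoxia libraries (log2 fold change 1.98 ± 0.11 SE, adjusted p = 2.07e-14), Ifi204 with 972, 1020 and 1098 (log2 fold change 1.98 ± 0.14 SE, adjusted p = 2.54e-12), Dhx58 with 348, 299 and 338 (log2 fold change 1.06 ± 0.14 SE, adjusted p = 3.05e-07) and Isg20 with 23.98, 27.5 and 28.5 (log2 fold change 1.34 ± 0.24 SE, adjusted p = 5.42e-05) stood above their control values. The 3 lower members were Oas2, with 45.8, 37.6 and 51.7 CPM with IFNg+hypoxia and 116, 85.3 and 75.8 CPM in controls, without overlap (log2 fold change -1.04 ± 0.27 SE, adjusted p = 0.00469), Ifit3b (log2 fold change -0.73 ± 0.28 SE, adjusted p = 0.0385) and Ddx58 (log2 fold change -0.43 ± 0.15 SE, adjusted p = 0.0206). Ifih1 was higher by 0.39 ± 0.13 (SE, adjusted p = 0.018) under TMM but stood at -0.01 under the RPKM totals. Ifit3b lost its call without IFNg+hypoxia library 1 or 3 or control library 1 or 3 (adjusted p = 0.0682 to 0.183), Ddx58 without IFNg+hypoxia library 1 or control library 2 (adjusted p = 0.0699 to 0.105) and Ifih1 without IFNg+hypoxia library 3 or control library 1 (adjusted p = 0.072 to 0.094).

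The ligands, receptors and relays of the type I pathway were followed beside the members, in a list of 32 genes of which 31 were found and 25 tested. Ifnb1, which encodes interferon-beta, had 4, 4 and 54 counts with IFNg+TNF, 6, 0 and 12 with IFNg+LPS, 12, 0 and 0 with IFNg alone, and 0 in every IFNg+IL1b, IFNg+hypoxia and control library. It had 0 counts in 12 libraries, and the third IFNg+TNF library held most of its counts, so no fold change is given. Ifna1, Ifna2, Ifna4, Ifna5, Ifnk and Ifne had 0 counts in all 18 libraries, which at this depth allows up to 0.151 to 0.255 CPM per library, counting error only.

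With IFNg against control, 15 of the 25 rose and 1 fell (15 higher and 2 lower under the RPKM totals). Among all 11563 tested genes 13.5% rose and 10% fell, with 1207 higher and 1796 lower under the RPKM totals. Irf7, the factor that induces the interferon-alpha genes, had 1496, 1292 and 1723 CPM with IFNg, against 355, 253 and 419 CPM in controls (log2 fold change 2.14 ± 0.14 SE, adjusted p = 3.04e-12). Stat2 rose by 1.04 ± 0.09 (SE, adjusted p = 1.4e-09), whereas Irf9, the DNA-binding partner in ISGF3, had 109, 119 and 118 CPM with IFNg and 116, 127 and 113 CPM in controls (log2 fold change -0.04 ± 0.11 SE, adjusted p = 0.871). The largest rise was that of Socs1, an inhibitor of interferon receptor signalling, with 7.19, 14.9 and 4.31 CPM with IFNg and at most 0.0605 CPM in any control, and the fall was that of Tlr7, a sensor of single-stranded RNA (log2 fold change -0.69 ± 0.19 SE, adjusted p = 0.00973).

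With IFNg+TNF against IFNg, 11 of the 25 rose and 6 fell, and 7 were higher and 8 lower under the RPKM totals. Among all 11563 tested genes 22.1% rose and 22.6% fell, with 1685 higher and 3985 lower under the RPKM totals. The share of the 25 that fell was thus near that of all genes. Irf7 had 3425, 3481 and 3215 CPM with IFNg+TNF, against 1496, 1292 and 1723 CPM with IFNg (log2 fold change 1.17 ± 0.14 SE, adjusted p = 9.78e-08), without overlap. Ifnar1 had 223, 273 and 209.7 CPM with IFNg+TNF, against 114, 135 and 118 CPM with IFNg (log2 fold change 0.95 ± 0.12 SE, adjusted p = 3.64e-07). Tbk1, a kinase that activates Irf3 and Irf7, rose by 1.01 ± 0.13 (SE, adjusted p = 5.01e-07), and Socs3, another inhibitor of cytokine signalling, by 3.29 ± 0.25 (SE, adjusted p = 1.96e-11). The DNA sensor Tlr9 fell, with a log2 fold change of -2.0 ± 0.22 (SE, adjusted p = 2.8e-07), as did Tlr7, with -1.45 ± 0.19 (SE, adjusted p = 3.04e-06). Stat2 rose by 0.34 under TMM and was at 0.02, not called, under the RPKM totals, and Irf9 (log2 fold change 0.22 ± 0.11 SE, adjusted p = 0.126) was not called.

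With IFNg+LPS against IFNg, 6 rose, led by Socs3 (log2 fold change 1.52 ± 0.24 SE, adjusted p = 2.14e-05), and 4 fell, led by Tlr7 (log2 fold change -1.02 ± 0.19 SE, adjusted p = 0.000479), and 5 were higher and 5 lower under the RPKM totals. Among all 11563 tested genes 10.2% rose and 10.1% fell, with 962 higher and 1441 lower under the RPKM totals. With IFNg+hypoxia, 6 of the 25 rose, again led by Socs3 (log2 fold change 0.92 ± 0.24 SE, adjusted p = 0.00482), and 4 fell, led by Tlr7 (log2 fold change -1.28 ± 0.19 SE, adjusted p = 4.14e-05), while the RPKM totals gave 2 higher and 8 lower. Among all genes 13.5% rose and 11.8% fell, with 888 higher and 2564 lower under the RPKM totals. None of the 25 was called with IFNg+IL1b by edgeR or DESeq2, and 0 had an unadjusted p under 0.05, where edgeR called 0.303% of all genes. Set against IFNg+TNF, IFNg+LPS had 4 higher, led by Tlr9 (log2 fold change 1.39 ± 0.21 SE, adjusted p = 5.73e-05), and 6 lower, led by Socs3 (log2 fold change -1.77 ± 0.23 SE, adjusted p = 1.54e-06), and 6 higher and 2 lower under the RPKM totals. Among all genes 12.2% were higher and 13.1% lower, with 2621 higher and 884 lower under the RPKM totals.

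In a second list of 59 measured interferon-stimulated genes outside the 35, 39 rose and 2 fell with IFNg against control, with a median of 0.78 (36 higher and 3 lower under the RPKM totals). With IFNg+TNF 28 rose and 5 fell (median 0.35, 16 higher and 14 lower under the RPKM totals), led by Ifi205, a PYHIN gene, which had 670.3, 927 and 861 CPM with IFNg+TNF and 50.5, 59.5 and 72.7 CPM with IFNg (log2 fold change 3.75 ± 0.24 SE, adjusted p = 1.18e-10). With IFNg+LPS 16 rose and 5 fell (12 higher and 6 lower under the RPKM totals), also led by Ifi205 (log2 fold change 1.82 ± 0.22 SE, adjusted p = 4.91e-06). With IFNg+hypoxia 12 rose and 8 fell (10 higher and 15 lower under the RPKM totals), the deepest fall being that of Mov10, an RNA helicase (log2 fold change -1.26 ± 0.15 SE, adjusted p = 3.22e-07). IFNg+LPS had 0 higher and 13 lower than IFNg+TNF (7 higher and 6 lower under the RPKM totals). None of the 59 was called with IFNg+IL1b by edgeR or DESeq2, and 3 had an unadjusted p under 0.05. Of all tested genes, 13.5% rose and 10% fell with IFNg against control, 22.1% and 22.6% with IFNg+TNF, and 10.2% and 10.1% with IFNg+LPS. With IFNg+hypoxia 13.5% rose and 11.8% fell, IFNg+LPS had 12.2% higher and 13.1% lower than IFNg+TNF, and 0.303% were called with IFNg+IL1b. Counts of all genes under the RPKM totals are those given with the pathway genes.

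Another list held 20 genes known to be driven by IFNg. All 20 rose with IFNg against control, with a median of 4.28 against 0.86 for the 35 members. This list, like the members, was chosen with earlier results of these data known, so its rise is not an independent yardstick for the members. With IFNg+TNF 10 rose and 2 fell (10 higher and 7 lower under the RPKM totals), between Nos2, the inducible nitric oxide synthase (log2 fold change 9.66 ± 0.30 SE, adjusted p = 2.48e-15), and Ciita, the activator of MHC class II genes (log2 fold change -1.93 ± 0.14 SE, adjusted p = 4.96e-12). With IFNg+LPS 9 rose and 5 fell (7 higher and 6 lower under the RPKM totals), and with IFNg+hypoxia 13 rose and 1 fell (10 higher and 1 lower). Shares of all tested genes in these comparisons are those given for the second list. Their counts under the RPKM totals are those given with the pathway genes. These lists are described by counts and medians, and the difference between lists was not tested.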

How the data were processed

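Per the labels' protocols, 100 ng of RNA went into stranded poly(A) libraries, and reads were single-end and 50 bp long. Per the submitters' processing notes, GSNAP aligned them to mm10. How reads were counted, with which annotation and whether by strand, is not given in the sources used here. The deposited files hold the authors' whole-number read counts per gene, the gene's width, and RPKM (reads scaled to width and library total). RPKM was used only to recover those totals, which lay between 22728833 and 39859629 reads and of which the counts made up 51.68 to 56.45%. Of the deposited widths, 86.7% were multiples of 3, so widths are treated as coding length. Of the 22598 identifiers, 22457 had a symbol in GENCODE M21 and 141 had none.

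The count test was edgeR 4.0.16 quasi-likelihood (R 4.3.3, TMM, filterByExpr, robust glmQLFit, glmQLFTest) in 1 model over all 18 libraries, with Benjamini-Hochberg adjustment over 11563 genes in each of 7 comparisons. SE is the log2 fold change divided by the square root of F, and 95% intervals use the t distribution with the test's degrees of freedom. TMM factors were 0.805 to 1.19. In simulated data for IFNg+TNF against IFNg with 11563 genes, 90% of 100 genes changed 4-fold and 56% of 100 changed 2-fold were recovered. Only these 200 genes were changed there, while 5174 genes were called in the measured comparison. The cutoff after adjustment depends on that share, so the recovery does not give the sensitivity of the test in the measured data. Replicates were not copies (chi-square per degree of freedom 11.9 to 50.6). Shared sequence was measured as the share of a gene's 50-base coding windows found in any transcript of another gene in GENCODE M21, coding or not. Overlaps of coding bases with other genes touched Herc6 (41.9%, Gm45193, same strand), Ifi35 (27.6%, Gm11626, opposite), Usp18 (11.2%, Gm44148, opposite), Adar (9.9%, Chrnb2, opposite), Dtx3l (7.8%, Parp9, opposite), Dhx58 (6.9%, Dhx58os, opposite) and Parp14 (2.0%, Gm49730, same). Windows shared with other genes were also found in Herc6 (38.0%), Ifi204 (31.6%) and Ifi203 (26.2%), and in Isg15 (6.5%), so these values are uncertain to that extent.

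Alternatives were DESeq2 1.42.0, its size factors in edgeR, scaling to the RPKM totals, no filter on low counts, a filter at 50 counts, fits of only the groups compared, a replicate block, and leaving out each library. Any of the 35 members may be named, and values per library are given for the called members with the largest change in each role and for a fixed set of 13. Of the other lists, the called genes with the largest rise and fall may be named, and Stat2, Irf9, Irf7, Ifnar1, Tbk1, Ifnb1 and Nos2 were added for their roles. Values of another gene of that rule are not reported here. The members and lists were chosen with earlier results of these data known. Intervals and floors cover counting error only where they rest on counts.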

Additional observations from a re-analysis of the deposited data

How the results depend on the processing

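The numbers in the sample titles were not taken as pairs, since not every pair of libraries with the same number deviated together: over 45 such pairs the correlation of deviations from the group means was -0.095 to 0.233 (median 0.035) and 9 were over 0.1. As a hint the other way, pairs with different numbers had a lower median (-0.026, range -0.193 to 0.175), and 12 of 18 libraries correlated best with their own number. Whether the numbers mark a shared block was not tested, and the main tests take no account of one. With the replicate number as a block, members higher and lower were 28 and 1 for IFNg against control, 25 and 2 with IFNg+TNF, 0 and 0 with IFNg+IL1b, 17 and 3 with IFNg+LPS, 5 and 7 with IFNg+hypoxia, 1 and 13 for IFNg+LPS against IFNg+TNF, and 24 and 3 for IFNg+hypoxia against control. The block added calls for Oas2 for IFNg against control (-0.52, adjusted p = 0.0111), with IFNg+TNF (0.59, adjusted p = 0.00212) and with IFNg+hypoxia (-0.49, adjusted p = 0.0182), for Cmpk2 with IFNg+LPS (0.62, adjusted p = 0.00867), with IFNg+hypoxia (-0.51, adjusted p = 0.0281) and for IFNg+LPS against IFNg+TNF (-0.55, adjusted p = 0.0177), for Ifih1 (0.35, adjusted p = 0.00487) and Ddx58 (0.37, adjusted p = 0.0135) with IFNg+LPS, and for Ifit1bl1 (0.55, adjusted p = 0.0285) and Oasl2 (-0.29, adjusted p = 0.018) for IFNg+LPS against IFNg+TNF. Under the RPKM totals, Adar with IFNg+TNF reversed to -0.01 (adjusted p = 0.93), Dtx3l with IFNg+TNF to -0.30 (adjusted p = 0.0457) and Ifih1 with IFNg+hypoxia against control to -0.01 (adjusted p = 0.971), and 19 members were called with IFNg+hypoxia against IFNg. Fitting only the groups compared called 17 there, 7 members for IFNg+LPS against IFNg+TNF, and 79 genes with IFNg+IL1b against 35 with all groups. DESeq2 called 1 member and 84 genes with IFNg+IL1b. The cause of these shifts was not tested. Leaving out 1 library gave 25 to 28 called members for IFNg against control, 23 to 25 with IFNg+TNF, 0 to 0 with IFNg+IL1b (14 to 34 genes), 14 to 18 with IFNg+LPS, 6 to 10 with IFNg+hypoxia (6 without IFNg library 1 or 2 or IFNg+hypoxia library 3), 8 to 14 for IFNg+LPS against IFNg+TNF, and 25 to 27 for IFNg+hypoxia against control. Of 245 member results, 235 kept their direction and their side of the threshold with DESeq2, 243 with its size factors, 240 without the filter and 240 with the stricter one, 229 with only the groups compared and 170 with the RPKM totals. Over single libraries left out this held for 1322 of 1470, with 72 weaker and 0 reversed. Counts of Ifnb1 were too few to compare groups.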

Other observations

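Several members kept the same order of libraries by number across groups, a pattern noticed after the values were seen. Rsad2, Oasl2 and Ifih1 had their lowest CPM in library 1 in 6 of 6 groups, and Parp9 in library 2 in 6 of 6. Oas2 was highest in library 1 in 5 of 6 groups and lowest in library 2 in 5 of 6, and Dhx58 was highest in library 1 in 5 of 6. Ifit1, Ifit1bl1, Rtp4, Dtx3l and Ifih1 were highest in library 3 in 5 of 6. The labels do not say what a number marks.

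The spread between libraries of a group differed between members. The median coefficient of variation over the 35 was 12.6% with IFNg+TNF, 14.0% with IFNg+LPS, 8.5% with IFNg+IL1b, 7.9% with IFNg+hypoxia, 10.3% with IFNg and 13.4% in controls. The largest values were those of Ifit3 with IFNg+LPS (40.9%), Oas2 with IFNg (39.1%) and Isg20 in controls (36.5%). In the third IFNg+TNF library, which held 54 counts of Ifnb1, the members deviated from their group mean by a median of 0.06 on the log2 scale, and in the first IFNg library, which held 12, by -0.02. Each group mean includes the library itself, which makes its deviation smaller. A link between the Ifnb1 counts and the members was not tested.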
